A study of Mus musculus with 4 samples.

Results

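Cacna1g, Cacna1h and Cacna1i encode the pore-forming subunits of the T-type calcium channels, and these 3 genes, taken by name from the gene list, are described here among the 28000 genes and reporter transcripts counted in the files. T-type channels open at voltages close to rest, unlike the high-voltage-activated calcium channels that a full action potential opens. At rest many of them are inactivated, and a hyperpolarisation restores them, so that on release they carry a low-threshold calcium spike that can drive a burst of action potentials. In the cortex this rebound firing gave its name to the low-threshold spiking interneurons, many of which express somatostatin (Sst). In recombinant systems Cacna1g and Cacna1h give fast transient currents, while Cacna1i gives currents that activate and inactivate more slowly.

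The cells came from the somatosensory cortex of triple transgenic mice on a CD1 background. In these mice SST-IRES-Cre switches on tdTomato from the Ai9 Rosa-LSL-tdTomato allele, and the X94-GFP line adds EGFP driven from a Gad1 construct. tdTomato therefore marks cells in which the Sst locus was active at any time, and GFP marks the X94 subset that the study used for non-Martinotti cells, in contrast to Martinotti cells, whose axons reach layer 1. GFP+/tdTomato+ cells were sorted from 6 mice aged 97 days (P97) into 1 library, tdTomato+ cells irrespective of GFP were sorted from the same mice into another, and tdTomato+ cells of 2 batches of mice aged 45 days (P45) made the remaining 2 libraries, with the number of P45 mice not given in the sources used here.

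Each library was a droplet library that reads the 3′ end of transcripts and counts unique molecular identifiers (UMIs), so values are numbers of molecules. The files held 3410049 UMIs in 232 barcodes for the GFP+/tdTomato+ library, 5693022 in 741 for P97 tdTomato+, 4906685 in 866 for P45 replicate 1 and 4801367 in 772 for P45 replicate 2. An SST cell was a barcode with 2000 or more UMIs and 3 or more Sst UMIs, which left 2098 of 2611 barcodes, and 1887 of 2379 in the 3 tdTomato+ libraries. In the order of the libraries just given there were 211, 573, 668 and 646 SST cells, with median depths of 15222, 7583, 5157.5 and 6155.5 UMIs. Gad1, the main GABA-synthesising enzyme, had a UMI in 94.9% to 96.7% of SST cells of the 4 libraries, and Lhx6, a transcription factor of their lineage, in 64.5% to 73.9%. The summed excitatory marker level was 16.2 to 51.1 CPM (counts scaled to a common total of 1e6 UMIs), with Slc17a6 at 0 in all 4 libraries. The summed oligodendrocyte marker level was 50.5 CPM in GFP+/tdTomato+ cells and 934 to 961 CPM in the tdTomato+ libraries. Between 0 and 1 SST barcode was shared by any pair of libraries.

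SST cells were grouped by 7 marker genes, a cell being positive with 1 or more UMIs. The markers were Hpse (heparanase, the study's marker of X94 cells), Calb2 (calretinin, a marker of Martinotti cells), Pvalb (parvalbumin), Crh (corticotropin-releasing hormone), Th (tyrosine hydroxylase), Nos1 (neuronal nitric oxide synthase) and Myh13 (a muscle myosin heavy chain). Free RNA and cell depth both bear on such a call. In 104 excitatory-like barcodes of the tdTomato+ libraries, with a median of 7428 UMIs, 1.92% had a Hpse UMI, against 11.5% of SST cells at a median of 6126 UMIs. Pvalb was found in 2.88% of the excitatory-like barcodes, against 33.2% of SST cells, and Myh13 in 0.962%, against 8.21%. Nos1 was found in 15.4% of them and in 19.1% of SST cells, so a single Nos1 UMI separates cells poorly. Positive cells were deeper than negative cells for Hpse and Pvalb and shallower for Myh13, and these depths are given beside each result.

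Cacna1g (ENSMUSG00000020866) lies on the minus strand of chromosome 11 (94408391 to 94474198, GRCm38), Cacna1h (ENSMUSG00000024112) on the minus strand of chromosome 17 (25374285 to 25433783) and Cacna1i (ENSMUSG00000022416) on the plus strand of chromosome 15 (80287238 to 80398279). All 3 are protein-coding genes. The annotated span of Cacna1h overlaps a gene on the other strand, Tpsg1, which had 0 UMIs in SST cells of all 4 libraries, and the other 2 spans overlap no other annotated gene.

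All 3 genes were detected in SST cells of every library, in most cells of each at 0 or 1 UMI. In GFP+/tdTomato+ cells 69 UMIs of Cacna1g were counted, against 197 in P97 tdTomato+, 201 in P45 replicate 1 and 186 in P45 replicate 2. Scaled to library size these were 21.0 CPM in GFP+/tdTomato+ cells, against 39.998, 50.4 and 43.1 CPM in the tdTomato+ libraries in the same order. The 3 tdTomato+ libraries lay close together (44.5 ± 5.35 CPM, SD, n = 3) and all above the GFP+/tdTomato+ library. A Cacna1g UMI was found in 27.0% of GFP+/tdTomato+ cells, and in 26.2%, 23.8% and 24.8% of tdTomato+ cells. Those shares do not allow for depth, and with every cell thinned to 2000 UMIs they were 5.21% of GFP+/tdTomato+ cells, against 7.85%, 10.2% and 8.98%.

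Cacna1i, the slow member, had 245 UMIs in the GFP+/tdTomato+ library and 220, 201 and 234 UMIs in the tdTomato+ libraries. This was 74.6 CPM in GFP+/tdTomato+ cells, against 44.7, 50.4 and 54.2 CPM (49.8 ± 4.80 CPM, SD, n = 3). Here the GFP+/tdTomato+ library was the highest of the 4. The share of cells with a UMI was 59.2% in that library, against 28.4%, 21.6% and 26.5%, and after thinning it was 16.1%, against 9.95%, 10.03% and 10.53%. The largest number of Cacna1i UMIs in a single cell was 9 in the GFP+/tdTomato+ library and 5 to 7 in the tdTomato+ libraries, while no cell held more than 4 of Cacna1g or more than 2 of Cacna1h.

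Cacna1h was the member with the least data. It had 7 UMIs in the GFP+/tdTomato+ library and 27, 32 and 34 in the tdTomato+ libraries, which is 2.13 CPM against 5.48, 8.03 and 7.88 CPM. A UMI was found in 3.32% of GFP+/tdTomato+ cells and in 4.54%, 4.64% and 4.95% of tdTomato+ cells. Excitatory-like barcodes, pooled over the tdTomato+ libraries and deeper than SST cells, held more, with a UMI in 15.4% of them, against 4.72% of SST cells. After thinning the shares were 3.85% and 1.54%. The excess was not in every library, as their level ranged from 5.44 to 35.7 CPM, against 5.48 to 8.03 CPM in SST cells. How much of the Cacna1h signal in SST cells came from free RNA was not tested, and the 17 non-neuronal barcodes that could serve as a blank had 0 UMIs of any member but are too few and too shallow to set a level. Comparisons of Cacna1h between groups of cells therefore rest on few molecules.

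Most cells held UMIs of at most 1 member. None of the 3 genes was seen in 31.3% of GFP+/tdTomato+ cells and in 49.9%, 56.9% and 53.1% of tdTomato+ cells. Of the cells with a Cacna1i UMI, 30.4% also had a Cacna1g UMI in the GFP+/tdTomato+ library, against 22.1% of its cells without Cacna1i. In P97 tdTomato+ the same shares were 23.9% and 27.1%, in P45 replicate 1 they were 22.2% and 24.2%, and in P45 replicate 2 they were 26.3% and 24.2%. The order of the paired shares differed between libraries, at a depth at which most molecules are not captured.

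The CPM level of Cacna1g moved with the depth of the cell, and that of Cacna1i moved in no fixed direction. Cells above the library median had 33.2, 40.7 and 36.2 CPM of Cacna1g in P97 tdTomato+, P45 replicate 1 and P45 replicate 2, against 56.6, 72.0 and 58.2 CPM in cells at or below it. Cacna1h went the same way, with 4.58, 5.82 and 6.76 CPM above the median, against 7.69, 12.9 and 10.3 CPM. For Cacna1i the values were 45.8, 49.5 and 54.4 CPM above, against 41.9, 52.6 and 53.8 CPM. In the GFP+/tdTomato+ library, where 181 of 211 cells had 5000 or more UMIs, Cacna1g was at 20.03 CPM above the median and 23.4 CPM at or below it. Depth is therefore given again wherever Cacna1g or Cacna1h differed between groups, and its part in those results was not tested beyond the fits named there.

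**Figure D1:**
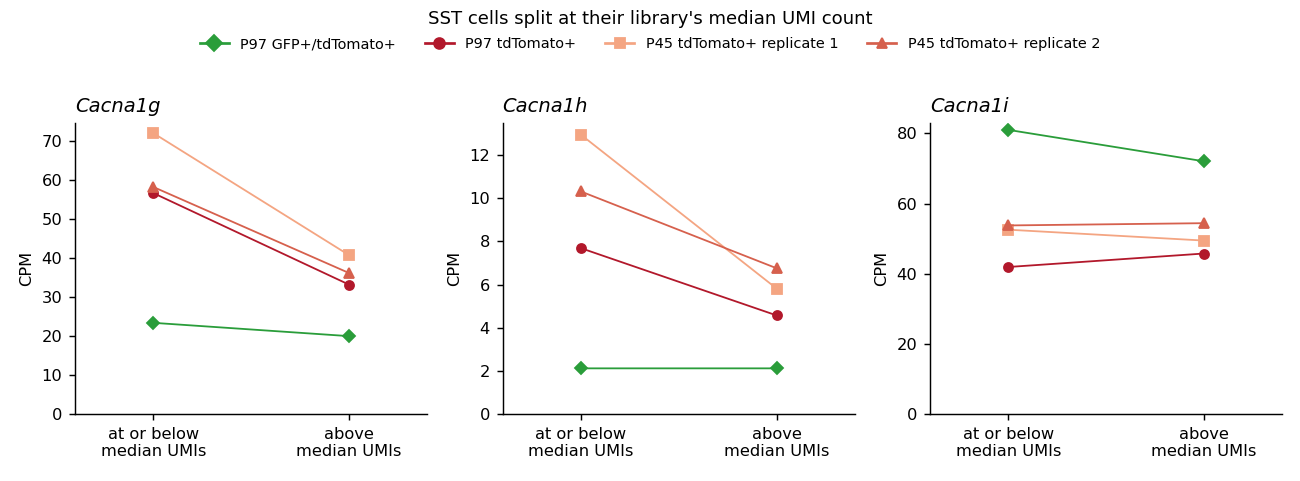
Level of each T-type gene (CPM, linear axis from 0) in SST cells above and at or below the median UMI count of their own library, 1 line per library. Cacna1g and Cacna1h were lower in the deeper cells of every tdTomato+ library, with Cacna1g at 33.2 CPM in the deeper and 56.6 CPM in the shallower P97 tdTomato+ cells, while the Cacna1i lines are nearly flat.

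Hpse-positive SST cells had more Cacna1i than Hpse-negative cells in all 4 libraries. In P97 tdTomato+, 79 positive cells held 72 UMIs of Cacna1i, or 77.4 CPM, against 148 UMIs and 37.0 CPM in 494 negative cells. In P45 replicate 1 the levels were 102.9 CPM in 64 positive cells and 41.8 CPM in 604 negative cells, and in P45 replicate 2 they were 124.8 CPM in 74 and 42.4 CPM in 572. The lowest positive value lay well above the highest negative one. How many of all genes separate in this way was not counted, for Hpse or for any other marker. The GFP+/tdTomato+ library, which entered no test, had 89.3 CPM in 120 positive cells and 49.4 CPM in 91 negative cells. Over the tdTomato+ libraries the log2 fold change was 1.34 (SE 0.143, edgeR's quasi-likelihood test with Benjamini-Hochberg adjustment, adjusted p = 6.44e-11), in a comparison in which 11.6% of 10684 genes tested were called, 5.71% higher and 5.86% lower in the positive cells.

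The share of cells with a Cacna1i UMI showed the same order. It was 59.5% of Hpse-positive cells and 23.5% of Hpse-negative cells in P97 tdTomato+, 48.4% and 18.7% in P45 replicate 1, 60.8% and 22.0% in P45 replicate 2, and 73.3% and 40.7% in the GFP+/tdTomato+ library. Positive cells were deeper, with medians of 11818, 8804.5 and 8228.5 UMIs against 7191.5, 4902 and 5946.5 in the tdTomato+ libraries. After thinning to 2000 UMIs the shares were 18.8% and 9.11% in P45 replicate 1 and 24.3% and 8.74% in P45 replicate 2. In P97 tdTomato+ they were 10.1% and 9.92%, so at that depth the shares were close together in this library. In an alternative chosen after seeing the data, cells above and at or below the median were summed apart, with the depth class in the fit. The log2 fold change was then 1.38 (edgeR's quasi-likelihood test, adjusted p = 4.68e-14). Each part of a library was a block of its own in this fit, although both parts come from the same mice. Its p-value, here and for the other markers, therefore does not rest on libraries as the only replicates. Cacna1i was called under all 15 alternatives, at 1.05 to 1.49.

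Cacna1g was lower in Hpse-positive cells, at 22.6, 40.8 and 30.8 CPM against 44.1, 52.0 and 45.1 CPM in P97 tdTomato+, P45 replicate 1 and P45 replicate 2, and at 18.3 against 25.5 CPM in the GFP+/tdTomato+ library. All positive values lay below all negative ones in the tdTomato+ libraries. The log2 fold change was -0.59 (SE 0.19, edgeR's quasi-likelihood test, adjusted p = 0.0291), a call kept under 6 of 15 alternatives. It was lost without the P97 tdTomato+ library (-0.42, adjusted p = 0.385 by the same test), without P45 replicate 2 (-0.63, adjusted p = 0.0586) and with the depth class in the fit (-0.43, adjusted p = 0.221). Cacna1h did not pass the test, with 6.45, 5.32 and 8.10 CPM in positive cells, against 5.26, 8.47 and 7.84 CPM in negative cells (log2 fold change -0.02, adjusted p = 0.986 by edgeR's quasi-likelihood test). The summed oligodendrocyte markers were 28.0, 39.0 and 1996 CPM in Hpse-positive cells, against 1145, 1112 and 786 CPM in Hpse-negative cells. The 6 excitatory markers were lower in positive cells of each tdTomato+ library, at 2.15, 3.55 and 3.24 CPM, against 25.03, 26.6 and 18.4 CPM. Without the cells that held 3 or more UMIs of Slc17a7 or of non-neuronal markers the log2 fold change was 1.34 for Cacna1i and -0.59 for Cacna1g, both called by edgeR's quasi-likelihood test.

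**Figure D2:**
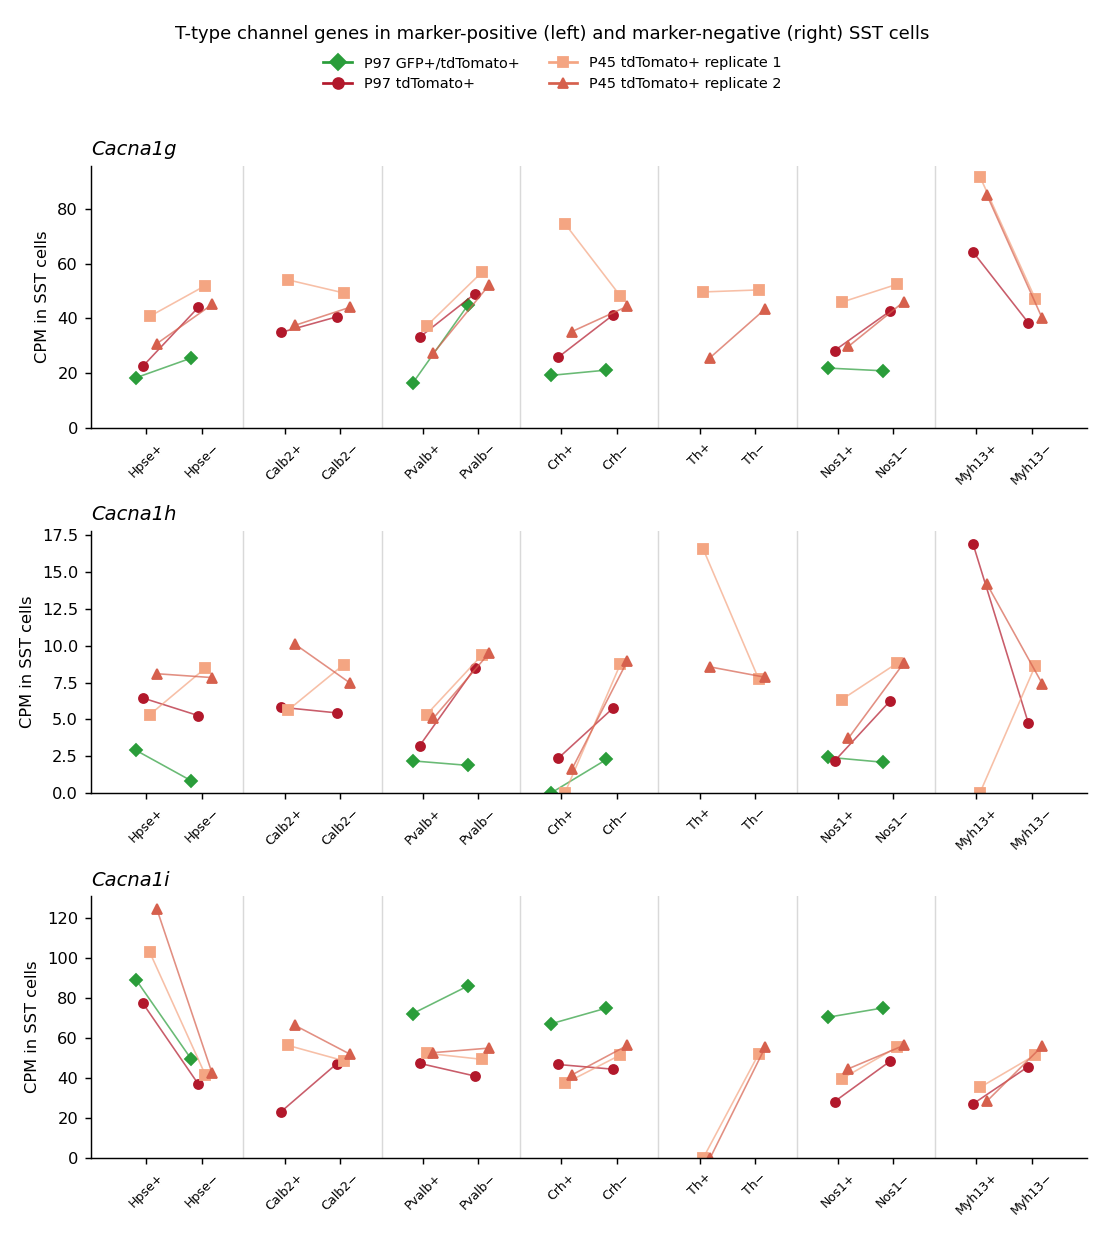
Level of the 3 T-type genes (CPM) in marker-positive and marker-negative SST cells of each library, 1 point per library, for the 7 markers. Cacna1i separates by Hpse, at 77.4 to 124.8 CPM in positive and 37.0 to 42.4 CPM in negative cells of the tdTomato+ libraries. In these libraries the other called pairs separate too: Cacna1i by Th, Cacna1g by Hpse, Pvalb and Myh13, and Cacna1h by Pvalb. Cacna1i by Myh13 and by Nos1 and Cacna1h by Crh, which did not pass the test, separate as well.

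Pvalb-positive SST cells had less Cacna1g. The level was 33.1 CPM in 259 positive cells and 49.1 CPM in 314 negative cells of P97 tdTomato+, 37.2 CPM in 169 and 56.9 CPM in 499 of P45 replicate 1, and 27.3 CPM in 198 and 52.1 CPM in 448 of P45 replicate 2. The groups did not overlap. The GFP+/tdTomato+ library had 16.4 CPM in 155 positive cells and 44.96 CPM in 56 negative cells, the widest gap of the 4. The log2 fold change was -0.70 (SE 0.133, edgeR's quasi-likelihood test, adjusted p = 5.99e-05), where 14.9% of 10858 genes were called, 7.29% higher and 7.56% lower. Positive cells were deeper, with medians of 10554, 7245 and 8023.5 UMIs, against 6353.5, 4639 and 5605.5. With the depth class in the fit the log2 fold change was -0.51 (adjusted p = 0.0124 by the same test). The call held under 14 of 15 alternatives and was lost in DESeq2 (adjusted p = 0.136).

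Cacna1h had 3.21, 5.32 and 5.09 CPM in Pvalb-positive cells, against 8.49, 9.36 and 9.48 CPM in Pvalb-negative cells of P97 tdTomato+, P45 replicate 1 and P45 replicate 2. In the GFP+/tdTomato+ library, with 7 UMIs in all, the levels were 2.18 and 1.87 CPM. The log2 fold change over the tdTomato+ libraries was -1.05 (edgeR's quasi-likelihood test, adjusted p = 0.0306), kept under 2 of 11 alternatives and lost without any 1 of the libraries, at -1.15 to -0.86. Cacna1i had 47.4, 52.4 and 52.8 CPM in Pvalb-positive cells and 41.1, 49.4 and 55.0 CPM in Pvalb-negative cells, and did not pass the test (log2 fold change 0.07, adjusted p = 0.811 by edgeR's quasi-likelihood test). The summed oligodendrocyte markers were higher in Pvalb-positive cells, at 1153, 2056 and 1161 CPM, against 645.5, 421 and 843 CPM. Their part in these results was not tested beyond the alternative without cells of 3 or more UMIs of Slc17a7 or of non-neuronal markers. The Cacna1g call held under that alternative.

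Of the 217 Hpse-positive cells of the tdTomato+ libraries, 53.0% were also Pvalb-positive, so both markers were read together. Cacna1i followed Hpse on either side of Pvalb. Hpse-positive Pvalb-positive cells had 81.7, 99.3 and 146 CPM and Hpse-positive Pvalb-negative cells 65.5, 108 and 107 CPM in P97 tdTomato+, P45 replicate 1 and P45 replicate 2. Hpse-negative cells had 36.3, 36.6 and 32.5 CPM where Pvalb-positive and 37.9, 43.9 and 47.8 CPM where Pvalb-negative. Cacna1g was highest in the cells with neither marker, at 51.7, 59.4 and 54.4 CPM, against 20.4, 48.1 and 24.9 CPM with both, 28.6, 30.3 and 35.7 CPM with Hpse alone and 37.3, 33.6 and 27.9 CPM with Pvalb alone. In the GFP+/tdTomato+ library Cacna1g had 14.95 CPM with both markers, 41.3 CPM with Hpse alone, 19.0 CPM with Pvalb alone and 48.6 CPM with neither. With both markers in 1 fit, also chosen after seeing the data, the Hpse term for Cacna1g was -0.47 on the log2 scale and did not pass (edgeR's quasi-likelihood test, adjusted p = 0.134). In this fit the Pvalb term for Cacna1g and the Hpse term for Cacna1i kept their calls.

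**Figure D3:**
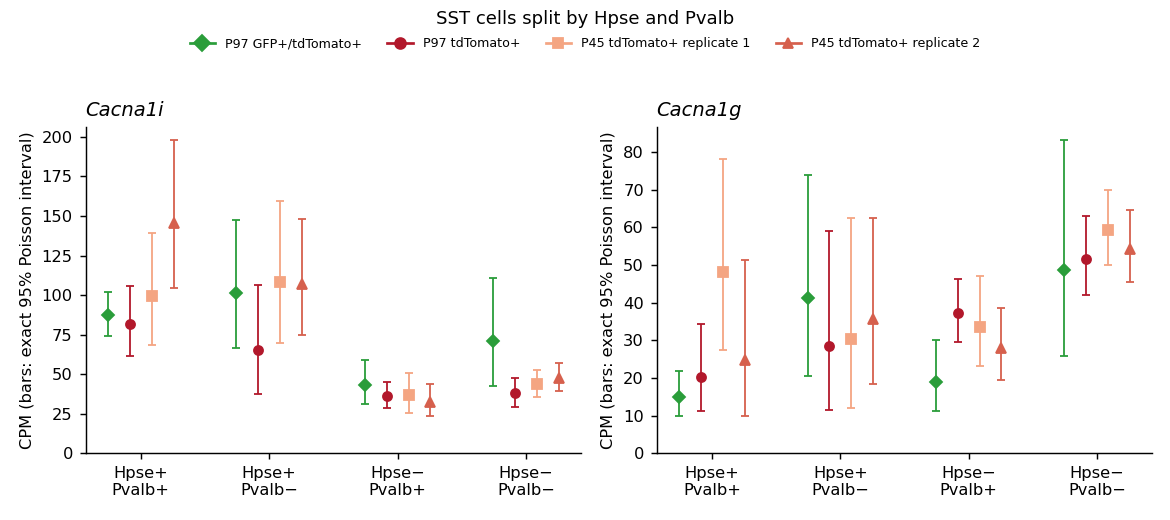
Level of Cacna1g and Cacna1i (CPM) in SST cells split by both Hpse and Pvalb, 1 point per library. Cacna1i is at 65.5 CPM or more in every Hpse-positive group of the tdTomato+ libraries and at 47.8 CPM or less in every Hpse-negative one, while Cacna1g is highest in the cells with neither marker.

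Myh13-positive cells had more Cacna1g, and Myh13 was not found in SST cells of the GFP+/tdTomato+ library. The level was 64.3 CPM in 45 positive cells and 38.4 CPM in 528 negative cells of P97 tdTomato+, 91.9 CPM in 53 and 47.3 CPM in 615 of P45 replicate 1, and 85.3 CPM in 57 and 40.2 CPM in 589 of P45 replicate 2. Each positive value lay above all negative ones. The log2 fold change was 0.92 (SE 0.204, edgeR's quasi-likelihood test, adjusted p = 0.00323), where 5.74% of 10532 genes were called. Positive cells were shallower, with medians of 6478, 4365 and 4626 UMIs, against 7717, 5245 and 6379, and with the depth class in the fit the log2 fold change was 0.74 (adjusted p = 0.0174 by the same test). The call held under 9 of 14 alternatives and was lost without P45 replicate 2 (0.83, adjusted p = 0.130) and in cells of 5000 or more UMIs (0.84, adjusted p = 0.143), both by edgeR's quasi-likelihood test.

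Cacna1i had 27.1, 35.4 and 28.4 CPM in Myh13-positive cells, against 45.8, 51.6 and 56.0 CPM in Myh13-negative cells. This difference did not pass the test (log2 fold change -0.77, adjusted p = 0.0834 by edgeR's quasi-likelihood test). Cacna1h had 16.9, 0 and 14.2 CPM in positive cells and 4.75, 8.64 and 7.43 CPM in negative cells (log2 fold change 0.59, adjusted p = 0.759 by the same test). The Myh13-positive cells of P45 replicate 1 carried 7573 CPM of summed oligodendrocyte markers, against 455.5 CPM in its Myh13-negative cells, while the other libraries had 50.8 and 28.4 CPM, against 991 and 1024 CPM. The 6 excitatory markers summed to 0, 7.07 and 0 CPM in Myh13-positive cells, against 22.0, 24.6 and 17.3 CPM in Myh13-negative cells. Without the cells that held 3 or more UMIs of Slc17a7 or of non-neuronal markers the Cacna1g log2 fold change was 0.99 (adjusted p = 9.24e-05 by edgeR's quasi-likelihood test).

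Th-positive cells gave no Cacna1i UMI at all. They were found only at P45, 23 in replicate 1 and 13 in replicate 2, and held 0 Cacna1i UMIs, against 435 UMIs in the 1278 Th-negative cells of these libraries. At the Th-negative level of 53.9 CPM, 12.8 UMIs would have been counted in the 36 positive cells. With 3 UMIs over both libraries as the limit, the Th-positive level would be at most 12.6 CPM, or at least 4.27-fold lower. The exact 95% interval reaches further, to 15.5 CPM, and so leaves room for a smaller fold. Either limit covers counting error in the pooled cells only, and not the spread between libraries. In shares, 0 of 36 cells with a UMI allows up to 8.33% of such cells (3 of 36, while the exact 95% interval reaches 9.74%), against 24.6% of Th-negative cells with a UMI. The comparison passed edgeR's quasi-likelihood test (adjusted p = 0.0126, 0.000103 to 0.274 over 8 alternatives), where 3.44% of 10638 genes were called. Of these it was lost with all cells thinned to 2000 UMIs, DESeq2 gave Cacna1i no adjusted p (its filter on low counts removed the gene), and with either library left out no spread is left to test. The 4 oligodendrocyte markers summed to 49.7 and 8.56 CPM in Th-positive cells, against 989 and 986 CPM in Th-negative cells. The call held without cells of 3 or more UMIs of Slc17a7 or of non-neuronal markers, and the part of these markers was not tested further. Cacna1g was present in the same cells, at 49.7 and 25.7 CPM, against 50.4 and 43.6 CPM in Th-negative cells (log2 fold change -0.32, adjusted p = 0.854 by the same test), and Cacna1h gave 2 and 1 UMIs.

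Nos1-positive cells had lower levels of all 3 genes in every tdTomato+ library, and none passed the test, with 2 at an unadjusted p under 0.05 and 0 called by DESeq2. Cacna1i was at 28.3, 39.6 and 44.7 CPM in positive cells, against 48.4, 55.4 and 56.4 CPM in negative cells (log2 fold change -0.47, adjusted p = 0.0858 by edgeR's quasi-likelihood test), where 5.06% of 10541 genes were called. Cacna1g was at 28.3, 45.9 and 29.8 CPM, against 42.7, 52.5 and 46.1 CPM (log2 fold change -0.38, adjusted p = 0.243 by the same test). Cacna1h was at 2.18, 6.34 and 3.73 CPM, against 6.24, 8.81 and 8.83 CPM (log2 fold change -0.86, adjusted p = 0.366). The positive cells were deeper, with medians of 9009, 6608 and 8216 UMIs, against 7331.5, 4742 and 5868. Their excitatory markers summed to 1.09, 22.2 and 3.73 CPM, against 25.2, 23.9 and 19.1 CPM in Nos1-negative cells. The GFP+/tdTomato+ library had 21.9 CPM of Cacna1g in 22 Nos1-positive cells and 20.9 CPM in 189 Nos1-negative cells. There Cacna1h was at 2.43 CPM (1 UMI) and 2.09 CPM, and Cacna1i at 70.5 and 75.2 CPM.

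No difference between Calb2-positive and Calb2-negative cells passed the test in any of the 3 genes, with 0 at an unadjusted p under 0.05 and 0 called by DESeq2. Cacna1i had 23.3, 56.4 and 66.4 CPM in positive cells and 47.2, 48.7 and 51.9 CPM in negative cells, lower at P97 and higher in both P45 libraries (log2 fold change 0.07, adjusted p = 0.916 by edgeR's quasi-likelihood test). Cacna1g had 34.9, 54.1 and 37.5 CPM, against 40.6, 49.4 and 44.2 CPM (log2 fold change -0.02, adjusted p = 0.989 by the same test), and Cacna1h had 5.82, 5.64 and 10.1 CPM, against 5.44, 8.71 and 7.45 CPM (0.01, adjusted p = 0.999). In this comparison 5.34% of 10565 genes were called, 2.79% higher and 2.55% lower in the positive cells.

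Crh-positive cells held few Cacna1h molecules. They had 1 UMI in P97 tdTomato+, 0 in P45 replicate 1 and 1 in P45 replicate 2, or 2.34, 0 and 1.60 CPM, against 5.78, 8.73 and 8.94 CPM in Crh-negative cells. The difference did not pass edgeR's quasi-likelihood test (adjusted p = 0.0889), and 5.12% of 10760 genes were called in this comparison. Cacna1g had 25.8, 74.7 and 35.2 CPM in positive cells, against 41.3, 48.3 and 44.4 CPM, and Cacna1i had 46.8, 37.3 and 41.6 CPM, against 44.5, 51.6 and 56.3 CPM. Neither passed the same test (adjusted p = 0.922 and 0.584), and for both the libraries fell on either side of 0.

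**Figure D4:**
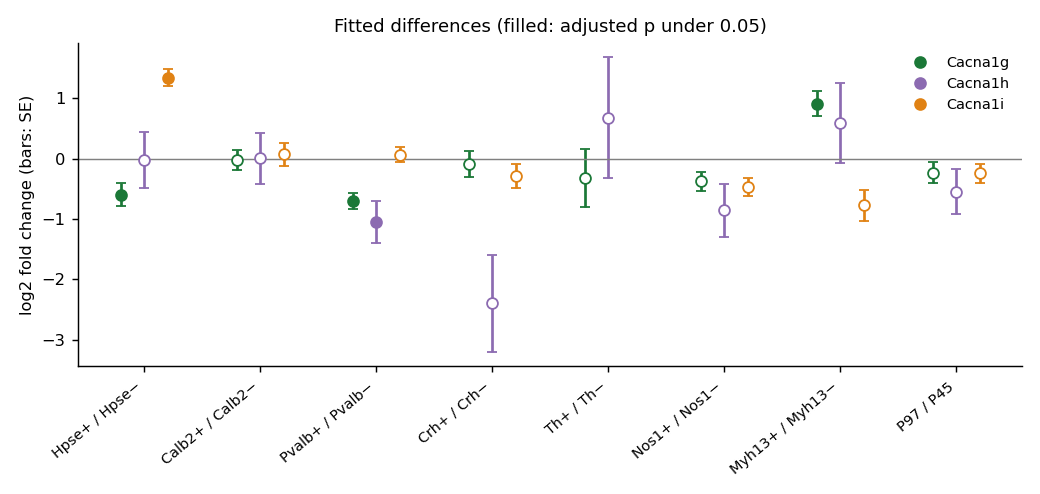
Log2 fold change of each T-type gene between marker-positive and marker-negative SST cells of the tdTomato+ libraries, and between P97 and P45 cells, with bars of 1 standard error. The plotted differences past the threshold are Cacna1i with Hpse (1.34), Cacna1g with Hpse (-0.59), Pvalb (-0.70) and Myh13 (0.92), and Cacna1h with Pvalb (-1.05). Cacna1i with Th also passed and is not drawn, since its fitted fold rests on a count of 0.

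Groups that do not overlap gave an order of levels. Of the 1887 tdTomato+ SST cells, 799 (42.3%) were positive for exactly 1 marker and 600 (31.8%) for none. Cacna1i was highest in Hpse-only cells (114 ± 37.0 CPM, SD, n = 3 libraries), followed by Calb2-only (67.1 ± 32.4 CPM) and marker-free cells (48.1 ± 4.56 CPM). Then came Crh-only (46.1 ± 11.2 CPM), Pvalb-only (39.7 ± 4.14 CPM), Myh13-only (35.8 ± 17.4 CPM) and Nos1-only cells (25.6 ± 5.64 CPM), and Th-only cells, which reached 10 cells in 1 library, had 0 UMIs. The ranges of the Hpse-only (77.4 to 151 CPM) and Calb2-only libraries (29.6 to 85.9 CPM) overlapped, and each further step was smaller than the larger of the neighbours' SDs, apart from the last, since Th-only cells have no SD. The test over all groups was passed (F = 8.49, edgeR's quasi-likelihood test, adjusted p = 3.26e-06), where 22.4% of 7279 genes were called.

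Cacna1g gave another order. Myh13-only cells were highest (95.4 ± 19.4 CPM, SD, n = 3), and marker-free cells (62.0 ± 5.16 CPM), Th-only cells of 1 library (52.3 CPM) and Calb2-only cells (49.1 ± 8.86 CPM) came next. The lowest Myh13-only library (74.9 CPM) lay above the highest marker-free one (67.5 CPM). At the lower end Nos1-only (36.2 ± 7.67 CPM), Pvalb-only (34.6 ± 6.30 CPM), Crh-only (33.4 ± 7.84 CPM) and Hpse-only cells (26.4 ± 16.5 CPM) lay within their spread of each other. These groups were deeper per cell than Myh13-only and marker-free cells, and the part of depth in this order was not tested beyond thinning. After thinning, 18.0% of Myh13-only, 11.7% of marker-free and 11.2% of Calb2-only cells had a UMI. In the order of the lower end the shares were 5.93%, 7.50%, 7.78% and 7.14%. The test over all groups was passed (F = 6.24, edgeR's quasi-likelihood test, adjusted p = 0.000128). With all cells thinned to 2000 UMIs neither gene passed it (adjusted p = 0.306 for Cacna1g and 0.0768 for Cacna1i), and both passed under the other 8 of 9 alternatives. Cacna1h was too sparse for this fit, with 13.2 ± 8.23 CPM in Calb2-only cells at the top, and 4.68 ± 1.61 CPM in Pvalb-only cells and 0 UMIs in 90 Crh-only cells at the bottom.

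**Figure D5:**
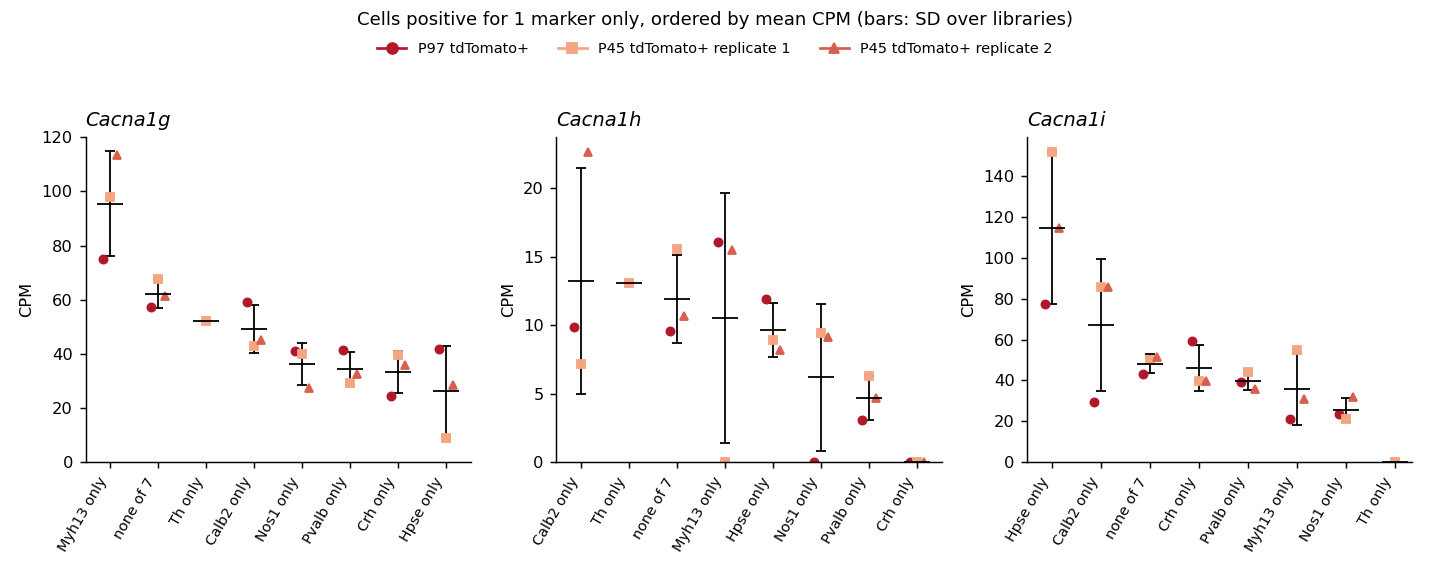
Level of each T-type gene (CPM) in SST cells positive for exactly 1 of the 7 markers or for none, 1 point per tdTomato+ library, groups ordered by their mean. Hpse-only cells are at the top for Cacna1i (114 CPM) and at the bottom for Cacna1g (26.4 CPM).

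Hpse-only cells were set against Calb2-only cells, since the study links Hpse to non-Martinotti and Calb2 to Martinotti cells. The study also states that Calb2 is enriched in several clusters and cannot serve as a unique marker. Hpse-only cells leave out the 53.0% of Hpse-positive cells that were also Pvalb-positive. The Cacna1i levels above gave a log2 fold change of 0.60, which did not pass the test (edgeR's quasi-likelihood test, adjusted p = 0.377), and those of Cacna1g gave -0.70 (adjusted p = 0.562 by the same test), where 3.17% of 7279 genes were called. The groups held 70 and 107 cells. With cells of the other 5 markers kept on both sides, an alternative chosen after seeing the data, the Cacna1i difference was 1.18 and passed (adjusted p = 0.000336 by edgeR's quasi-likelihood test).

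No difference between P97 and P45 tdTomato+ SST cells passed the test in any of the 3 genes. The log2 fold change of P97 over P45 was -0.23 for Cacna1g, -0.54 for Cacna1h and -0.24 for Cacna1i, and the adjusted p was 0.600, 0.559 and 0.549 by edgeR's quasi-likelihood test, where 1.78% of 12108 genes were called. None of the 3 had an unadjusted p under 0.05, and DESeq2 called none. Age and batch cannot be told apart here, since P97 has a single library.

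The sorts of the P97 mice had 1 library each, so the GFP+/tdTomato+ to tdTomato+ ratios below have no replicate check, and their 95% intervals cover counting error only. Cacna1i was 1.67 times as high in GFP+/tdTomato+ SST cells (95% interval 1.39 to 2.01), Cacna1g 0.525 times (0.393 to 0.694) and Cacna1h 0.389 times (0.143 to 0.915). GFP+/tdTomato+ cells were the deeper ones, and in cells of 8000 to 16000 UMIs, a range chosen after seeing the data that kept 70 and 208 cells, the ratios were 1.62 (1.19 to 2.20) for Cacna1i and 0.581 (0.327 to 0.978) for Cacna1g. For Cacna1h the interval then covered 1 (0.212, 0.00497 to 1.44). With every cell thinned to 2000 UMIs the ratio was 1.87 (1.22 to 2.85) for Cacna1i and 0.636 for Cacna1g, whose interval then covered 1 (0.297 to 1.24).

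The sorts also differed in their markers, since 56.9% of GFP+/tdTomato+ cells were Hpse-positive, against 13.8% of tdTomato+ cells, and 73.5% were Pvalb-positive, against 45.2%. Among Hpse-positive cells the Cacna1i ratio was 1.15 (0.874 to 1.54), and among Hpse-negative cells 1.33 (0.972 to 1.81), so within either class the interval reached 1. In Hpse-negative cells it lay above 1 for cells of 5000 or more UMIs (1.44, 1.03 to 2.01) and for cells of 10 or more Sst UMIs (1.48, 1.05 to 2.05). Among Pvalb-positive cells the Cacna1g ratio was 0.493 (0.338 to 0.712), and among Pvalb-negative cells 0.916 (0.562 to 1.44). Within the Hpse classes Cacna1g had ratios of 0.812 (0.465 to 1.46) in positive and 0.580 (0.382 to 0.853) in negative cells.

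A T-type channel works beside other channels, and 37 genes in 4 lists were read in the same fits: 7 high-voltage-activated pore subunits, 8 auxiliary calcium channel subunits, 15 channels and subunits of rebound and burst firing (HCN, SK and A-type potassium channels) and 7 regulators of T-type channels. In the Hpse comparison 31 were tested, 2 were higher (5.71% of all genes were) and 4 lower (5.86% of all genes), with a list median of 0.10 against -0.00264 over all genes on the log2 scale. Cacnb4, an auxiliary beta subunit, had 614 ± 34.9 CPM in Hpse-positive cells and 378 ± 16.9 CPM in Hpse-negative cells (SD, n = 3 each, log2 fold change 0.73, edgeR's quasi-likelihood test, adjusted p = 4.31e-09), and Cacna1a, the P/Q-type pore, rose by 0.30 on the log2 scale (adjusted p = 0.0448). Kcnip4 and Kcnip2, which bind A-type potassium channels, fell by 1.43 and 0.89 on the log2 scale (adjusted p = 5.52e-06 and 0.00231), and Cacnb2, another beta subunit, fell by 0.92 (adjusted p = 0.0335), all by edgeR's quasi-likelihood test.

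In the Pvalb comparison 5 of 31 tested list genes were higher (7.29% of all genes were) and 7 lower (7.56% of all genes), with a list median of -0.11. Hcn2, a hyperpolarisation-activated channel, and Kcnip2 rose by 0.59 and 0.51 on the log2 scale (adjusted p = 0.00103 and 0.00461 by edgeR's quasi-likelihood test). Kcnd3, an A-type potassium channel pore, fell by 0.76 on the log2 scale (adjusted p = 3.44e-07), Kcnip4 by 0.65 (adjusted p = 0.000864) and Kcnip3 by 1.31 (adjusted p = 0.0305), again by edgeR's quasi-likelihood test.

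In the Calb2 comparison 3 of 30 list genes were higher (2.79% of all genes were) and 3 lower (2.55% of all genes). Cacna2d2, an alpha-2-delta subunit, had 157 ± 6.01 CPM in Calb2-positive cells and 262 ± 53.3 CPM in Calb2-negative cells (SD, n = 3 each, edgeR's quasi-likelihood test, adjusted p = 0.000338), and Kcnip4 and Kcnip2 fell by 1.62 and 0.82 on the log2 scale (adjusted p = 0.00212 and 0.0216). Dpp10, an auxiliary A-type subunit, rose by 0.68, Cacna1e, the R-type pore, by 0.58, and Kcnd2, an A-type pore, by 0.51 on the log2 scale (adjusted p = 0.000479, 0.00178 and 0.00391 by the same test). Nos1-positive cells had 4 of 30 list genes higher (2.88% of all genes were higher) and 2 lower (2.17% of all genes were lower). Among these Cacna1e rose by 0.62 and Kcnip1 by 0.35 on the log2 scale (adjusted p = 3.44e-05 and 0.0159 by edgeR's quasi-likelihood test), and Kcnip4 fell by 0.71 and Cacna2d2 by 0.31 (adjusted p = 0.0234 and 0.0172).

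In Hpse-only against Calb2-only cells 2 of 26 tested list genes were higher and 0 were lower by edgeR's quasi-likelihood test, with 3 lower at an unadjusted p under 0.05 and 0 lower in DESeq2. Over all genes 3.17% were called in either direction. Cacnb4 had 657 ± 68.0 CPM in Hpse-only cells and 409 ± 75.1 CPM in Calb2-only cells, and Cacna2d2 had 279 ± 14.9 CPM and 173 ± 32.6 CPM (SD, n = 3 each, adjusted p = 0.00539 and 0.0158 by the same test). P97 tdTomato+ cells had 1 of 32 list genes higher than P45 cells, Cacna1b, the N-type pore (log2 fold change 1.14), and 0 lower. Over all genes 1.78% were called in either direction, with 1 library at P97. In either direction 6 of 30 tested list genes were called in the Myh13 comparison (5.74% of all genes were), 8 of 30 in the Crh comparison (5.12%) and 6 of 31 in the Th comparison (3.44%).

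The genes whose pattern was most like each member were taken over 22 sums of single-marker groups, centred within each library, among 7299 genes of 20 CPM or more, as a description in which the sums share libraries and depth. For Cacna1i these were Nrxn3, a presynaptic adhesion molecule (Pearson r 0.90), Fem1c (0.89) and Pcdh11x, a protocadherin (0.88). For Cacna1g they were Dock4 (0.88), Dcakd (0.84) and Mis18a (0.84), and for Cacna1h, with its few molecules, Npm1 (0.71), Hivep3 (0.69) and C530008M17Rik (0.67). Cacna1g and Cacna1i had an r of -0.40 with each other over the same sums.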

How the data were processed

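The deposited values are raw UMI counts per barcode and gene that the authors made with Cell Ranger 2.0.0 against GRCm38 (study methods and submitters' processing notes), for barcodes called as cells. No source used here gives their annotation release. For coordinates a GENCODE annotation of GRCm38 was used, in which 27645 of 28000 identifiers were found. The study's own sample filter and clustering were not repeated, and no doublets were removed, other than in the alternative that left out cells with 3 or more UMIs of Slc17a7 or of non-neuronal markers.

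UMI counts of SST cells (2000 or more UMIs, 3 or more Sst UMIs) were summed per library and group, with 10 or more cells on each side. edgeR 4.0.16 in R 4.3.3 (TMM, filterByExpr, quasi-likelihood test, Benjamini-Hochberg over all genes tested, adjusted p under 0.05) compared the sums of the tdTomato+ libraries (3), and in marker comparisons each library was a block. This pairing follows from the design, as positive and negative cells of a library share their mice. In blocked marker fits each p-value measures how the difference between positive and negative cells varied between libraries (only the P45 libraries for Th). The age fit draws its spread from the P45 libraries, since P97 has a single library. In all fits edgeR draws the spread of a gene towards that of other genes. Fits with the depth class count the deeper and shallower cells of a library as separate blocks. Fits of the single-marker groups and of Hpse with Pvalb hold several sums per library. The p-values of these fits therefore do not rest on libraries as the only replicates. The marker that defines a group is set by the grouping and is no result. Ratios between sorts and shares of cells (Python 3.11.15, scipy 1.17.1) carry exact binomial 95% intervals for counting error only. CPM is scaled to 1e6 UMIs of the summed cells, and a count of 0 was taken to allow 3. Thinning drew 2000 UMIs per cell.

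Genes named are the 3 members, the markers, up to 3 called list genes in each direction in 6 of the comparisons, and the 3 genes most like each member (log2 of CPM + 10), apart from 1 list gene that is not reported here. The members, lists and tests were chosen with earlier results of these data known. Alternatives were other normalization (DESeq2 1.42.0), no filter on low counts, stricter limits on UMIs, Sst or marker UMIs, thinning, each library left out, no block, and those named in the text. The scripts were tested on simulated data.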

Additional observations from a re-analysis of the deposited data

Results flagged for a closer look

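The Cacna1i difference between Calb2-positive and Calb2-negative cells was -23.9 CPM in the P97 tdTomato+ library, against 7.64 and 14.5 CPM in the P45 libraries, so that the ages went opposite ways. The test of the difference between ages did not pass (log2 -1.33, SE 0.391, edgeR's quasi-likelihood test, adjusted p = 0.510), with 1 library at P97.

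The Cacna1i difference between Crh-positive and Crh-negative cells was 2.38 CPM at P97, against -14.8 and -14.2 CPM at P45, and the same test did not pass (log2 0.52, SE 0.417, edgeR's quasi-likelihood test, adjusted p = 1).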

How the results depend on the processing

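Cacna1i with Hpse kept its call under all 15 alternatives, and with Th under 7 of the 8 that gave an adjusted p, being lost when thinned (edgeR's quasi-likelihood test, adjusted p = 0.274), while DESeq2 gave no adjusted p for it. Cacna1g with Hpse lost its call in cells of 5000 or more UMIs (log2 fold change -0.48), thinned (-0.73), in DESeq2 (-0.59), without the library block (-0.60), alone against none of the 7 markers (-1.08), with Pvalb in the same fit (-0.47) and with the depth class in the fit (-0.43), and leaving out 1 library gave -0.74 to -0.42. With Pvalb it lost its call in DESeq2 (-0.71). With Myh13 it lost its call in cells of 5000 or more UMIs (0.84), thinned (0.94), in DESeq2 (0.92) and alone (0.62), and leaving out 1 library gave 0.83 to 1.01. Cacna1i in Hpse-only against Calb2-only cells gained a call (1.18) with the other 5 markers kept. Thinned, F over the single-marker groups was 1.66 for Cacna1g and 2.46 for Cacna1i.

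Differences that changed sign were all uncalled. Cacna1h with Hpse was 0.18 in cells of 5000 or more UMIs, 0.00983 without cells of 3 or more UMIs of other types' markers and -0.24 to 0.21 with 1 library left out. Cacna1g with Calb2 was 0.27 in cells of 5000 or more UMIs, 0.0572 with the depth class, 0.00467 without the block that pairs both sides of a library, and -0.18 to 0.0415 with 1 library left out. Cacna1h with Calb2 was -0.0135 with no filter and -0.33 to 0.37 with 1 library left out. Cacna1i with Calb2 was -0.23 thinned, -0.00979 in DESeq2 and -0.15 to 0.33 with 1 library left out. Cacna1i with Pvalb was -0.13 thinned, -0.26 alone and -0.11 with Hpse in the same fit, and with Crh 0.29 thinned. Cacna1g with Crh was 0.13 in cells of 5000 or more UMIs and -0.46 to 0.11 with 1 library left out, and with Th 0.14 in cells of 5000 or more UMIs. Cacna1h with Myh13 was -0.21 to 1.34 with 1 library left out. The cause of these changes was not tested.

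Counts of genes called moved by over 1.5 times under 49 of 121 settings. Without the block, and so without the pairing, 434 genes were called for Hpse (1236 with it), 128 for Calb2 (564), 276 for Pvalb (1613), 183 for Crh (551), 101 for Nos1 (533), 257 for Myh13 (605) and 121 for Hpse-only against Calb2-only cells (231). Thinned counts were 371, 212, 459, 229, 218, 278 and 73 in the same order, 211 for Th (366) and 733 for the test over all groups (1633). DESeq2 called 434 genes for Hpse, 394 for Pvalb, 203 for Calb2, 225 for Crh, 144 for Th, 168 for Nos1, 302 for Myh13, 134 for Hpse-only against Calb2-only cells and 80 for P97 against P45 (216), where no filter on low counts gave 730 and leaving out cells with other types' markers 420.

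Depth limits Cacna1h most, at 7 to 34 UMIs a library. Groups by 1 UMI depend on depth and free RNA, with 1 library for each sort at P97.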
